A study of Mus musculus with 38 samples.

Results

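Control mouse retinas at postnatal day 0 (P0) were compared with control retinas at P3, using 10 of the 38 retinas of the series, 5 at each age. They were selected by their labels alone, as samples labelled control with an age of P0 or P3. Each was 1 whole neural retina, taken without the pigment epithelium and not pooled, on a background almost entirely C57BL/6J. Every control carried 1 floxed and 1 wild-type allele of Crb2 together with the Chx10Cre transgene (Crb2F/+/Chx10Cre+/-), so neither age is a wild type, and this Cre transgene acts in a mosaic of retinal progenitors. The conditional knockouts (cKO, Crb2F/F/Chx10Cre+/-), 5 at P0 and 5 at P3, and the controls at P6 (5 retinas) and P10 (4 retinas) served as comparisons. RNA was labelled with Cy3 or Cy5 and hybridised to 2-colour Agilent arrays that carry 1 control and 1 cKO retina each. The sources used here do not say whether both eyes of a pup were taken, so the p-values below measure the spread between these retinas.

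The mouse retina is still being built at birth. Progenitors in the neuroblastic layer keep dividing, and retinal ganglion cells, horizontal cells, cones and most amacrine cells have already been born, while rods, bipolar cells and Müller glia are added in the days that follow. Newborn rods switch on the transcription factors Crx, Nrl and Nr2e3 first and the proteins of the light response afterwards. Over the same days the first blood vessels and the astrocytes that guide them spread across the inner surface from the optic nerve head.

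All values are quantile-normalised log2 intensities, so 1 unit is a 2-fold difference, and a gene with several probes is represented by its brightest one. A gene is said to have risen or fallen where the limma contrast of P3 minus P0 passed an adjusted p of 0.05 over all 39283 probes. Whole retinas were measured, so fewer cells of a type and less RNA per cell cannot be told apart. Between 63.9% and 75.6% of the features were well above background in the 10 retinas. Each age had 2 Cy3 and 3 Cy5 channels. The P0 retinas lay on slides 1 (4 retinas) and 2 (1 retina), and those at P3 on slides 2 (3 retinas) and 3 (2 retinas). Xist was high and Y-linked transcripts low in 1 of 5 retinas at P0 and 3 of 5 at P3, so the sexes were not balanced between the ages.

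Over 3 days, 4106 probes rose (10.5%) and 3142 fell (8%). With 1 probe for each of 31731 gene names, 3229 names rose (10.2%) and 2691 fell (8.48%), and these 2 shares are the background for every gene group below. Among the 20982 names well above background in all 5 retinas of an age the shares were 13.9% and 12%. Rises were the larger changes, with 349 probes up and 115 down by more than 2-fold. The 5 retinas of P3 lay wholly above the 5 of P0 for 8.47% of the names (8.6% of probes) and wholly below them for 5.98% (5.75% of probes). With slide as a fixed block, 2402 probes rose and 1822 fell, and with the day of the scan as a block the counts were 2275 and 1607. The Cy5 channels alone gave 2047 and 1254. Neither the 4 Cy3 retinas nor the 4 retinas of the slide that holds both ages gave a call with limma (0 rose and 0 fell), where 7153 and 7903 probes were at an unadjusted p under 0.05.

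**Figure D1:**
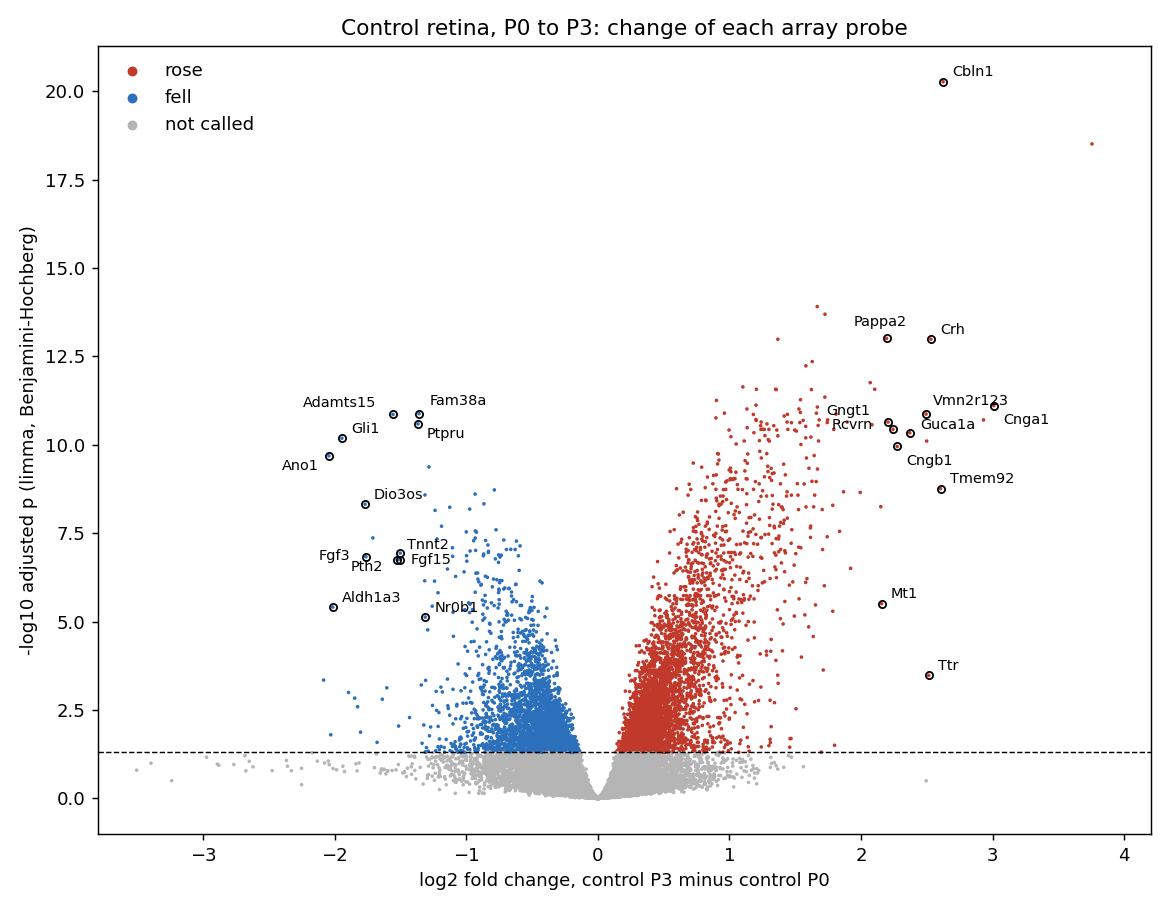
Each point is 1 of 39283 probes, with the log2 fold change of control P3 over control P0 on the x axis and minus log10 of the adjusted p on the y axis. Red probes rose and blue probes fell past the dashed line at an adjusted p of 0.05, and the circled genes are the 12 largest rises and 12 largest falls named by rule, from Cnga1 (3.01) to Ano1 (-2.04).

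Genes of the rod light response had the highest median rise of the 35 gene lists. In rods, light acts through the visual pigment on transducin and the cGMP phosphodiesterase, and the fall in cGMP closes the cyclic nucleotide-gated channel. Of 20 measured members of this cascade 16 rose, 1 fell and 3 were not called, with a median log2 change of 1.31 against -0.02 over all names. A fit with slide as a block gave 14 rises and 0 falls, and within the slide that holds both ages the median was 1.47. That slide holds 1 control retina of P0 (retina 5) and 3 of P3, so each within-slide value here rests on a single P0 retina.

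Cnga1, the alpha subunit of the rod channel, read 7.32, 7.02, 7.09, 6.61 and 7.69 at P0 and 10.09, 10.20, 10.49, 10.10 and 9.90 at P3. The ages did not overlap. It had the largest change of any named gene, 3.01 ± 0.22 (SE, adjusted p = 7.8e-12) or 8.05-fold, and its partner subunit Cngb1 rose by 2.27 ± 0.19 (SE, adjusted p = 1.12e-10). Guca1a, which encodes a calcium sensor that activates guanylate cyclase, read 8.00, 7.72, 7.75, 7.45 and 8.23 at P0 and 10.08, 10.24, 10.43, 10.06 and 10.20 at P3. Its rise was 2.37 ± 0.19 (SE, adjusted p = 4.59e-11). Rcvrn (recoverin, a calcium sensor of photoreceptors) rose by 2.24 ± 0.18 (SE, adjusted p = 3.68e-11) and Gngt1, the gamma subunit of rod transducin, by 2.20 ± 0.17 (SE, adjusted p = 2.28e-11). The transducin alpha subunit Gnat1 rose by 1.08 ± 0.19 (SE, adjusted p = 9.24e-05), and the phosphodiesterase subunits Pde6b, Pde6g and Pde6a by 1.87, 1.54 and 0.90. Genes that shut off the response moved too, with Sag (arrestin) up by 1.74 (adjusted p = 3.99e-08), Grk1 (a photoreceptor kinase) by 1.39 (adjusted p = 8.25e-06), Rgs9bp by 1.14 (adjusted p = 3.34e-05) and the transducin-binding Pdc by 1.24 (adjusted p = 2.89e-11). Rgs9 itself stood at -0.12 (adjusted p = 0.325).

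Guca1b, a close relative of Guca1a whose probe lies 2.76 kb from it on chromosome 17, went the other way, and it was the only member of the cascade to be called lower. It fell by 0.50 ± 0.15 (SE, adjusted p = 0.0212), but the call was lost without P0 retina 1 (adjusted p = 0.0841) or P3 retina 3 (adjusted p = 0.0679), and the change was 0.03 with slide as a block. The guanylate cyclase gene Gucy2e stood at -0.12 (adjusted p = 0.72).

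The promoters of these genes are shown because Crx, a homeodomain factor of photoreceptors, is known to bind sequences with the core TAATCC. Over the 250 bases before the RefSeq start, TAATCC on either strand was found in 7 of 13 cascade members with a promoter entry (53.8%), in 7 of 18 photoreceptor structure genes (38.9%) and in 4 of 12 photoreceptor transcription factors (33.3%), against 7.21% of 27025 genes. A match describes the letters only. This motif and the others below were chosen after the changes had been seen. In the 150-base windows below, from GRCm38.p6 and written 5′ to 3′ along the gene's strand, capitals mark TAATCC or its reverse complement GGATTA.
Cnga1, chr5:72642853-72643002, minus strand: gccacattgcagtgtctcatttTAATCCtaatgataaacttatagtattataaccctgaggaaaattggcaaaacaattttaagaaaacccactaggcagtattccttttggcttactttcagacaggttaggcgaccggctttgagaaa
Guca1a, chr17:47400607-47400756, minus strand: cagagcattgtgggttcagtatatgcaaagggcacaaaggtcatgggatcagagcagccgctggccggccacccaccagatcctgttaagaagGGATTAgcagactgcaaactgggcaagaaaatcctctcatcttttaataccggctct
Gngt1, chr6:3993858-3994007, plus strand: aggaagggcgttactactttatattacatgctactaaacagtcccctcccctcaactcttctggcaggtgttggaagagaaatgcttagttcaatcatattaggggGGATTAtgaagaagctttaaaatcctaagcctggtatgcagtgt
Cngb1, chr8:95306586-95306735, minus strand: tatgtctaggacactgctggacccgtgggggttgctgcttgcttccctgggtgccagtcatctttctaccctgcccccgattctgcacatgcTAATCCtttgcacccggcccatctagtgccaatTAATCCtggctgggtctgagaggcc
The rise of these 4 genes ranged from 2.20 to 3.01, and the Cngb1 window alone holds 2 matches. Of the 10 called cascade members with a promoter entry, 5 had a match. Gucy2e (-0.12) and Gucy2f (0.36) also had one and were not called.

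The transcription factors that specify photoreceptors rose with the cascade, 10 of 13 measured members against none that fell, with a median of 0.75. Nr2e3, the nuclear receptor that represses cone genes in rods, read 12.14, 12.19, 12.21, 11.93 and 12.09 at P0 and 13.56, 14.02, 14.16, 13.75 and 13.58 at P3. That is a rise of 1.70 ± 0.17 (SE, adjusted p = 6.81e-09). Nrl, the leucine zipper factor that directs cells to the rod fate, read 14.23, 14.12, 14.07, 14.02 and 14.11 at P0 and 15.54, 15.71, 15.75, 15.49 and 15.53 at P3, a rise of 1.50 ± 0.12 (SE, adjusted p = 3.84e-11) with no overlap. Crx rose by 1.06 ± 0.11 (SE, adjusted p = 5.7e-09), Samd7, a repressor expressed with Crx, by 1.54 ± 0.18 (SE, adjusted p = 8.18e-08), and Samd11 by 1.18 ± 0.16 (SE, adjusted p = 9.72e-07). Otx2, which acts upstream of Crx, rose by 0.69 ± 0.13 (SE, adjusted p = 0.000315) and Neurod1 by 0.75 ± 0.12 (SE, adjusted p = 3.44e-05). Mef2d rose by 0.82 (adjusted p = 6.1e-06), Prdm1, which holds new photoreceptors back from the bipolar fate, by 0.53 (adjusted p = 0.000255) and Esrrb by 0.33 (adjusted p = 0.00802). Rorb (0.04), Rax (-0.16) and Mef2c (0.12) were not called.

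Genes of photoreceptor structure and the visual cycle followed the same course, with 16 of 23 up, none down and a median of 0.78. Nxnl1, which encodes a rod-derived cone viability factor, read 7.84, 7.84, 8.12, 7.90 and 7.62 at P0 and 9.90, 10.07, 10.36, 9.74 and 9.78 at P3 and rose by 2.10 ± 0.15 (SE, adjusted p = 2.7e-12). The outer segment disc proteins Prph2 and Rom1 rose by 1.67 ± 0.13 (SE, adjusted p = 2.84e-11) and 1.43 ± 0.14 (SE, adjusted p = 2.83e-09). Rp1, a microtubule protein of the axoneme, rose by 1.41 ± 0.15 (SE, adjusted p = 1.68e-08), and Abca4, which moves retinoids across the disc membrane, by 1.34 ± 0.11 (SE, adjusted p = 2.89e-11). Cdhr1, Prom1 and Tulp1 rose by 1.02, 0.78 and 0.92. Fscn2, an actin bundler of photoreceptors, was at background in every P0 retina and well above it in 3 of 5 at P3, a rise of at least 1.93-fold (adjusted p = 1.23e-07). Rbp3, which encodes the retinoid carrier between photoreceptors and pigment epithelium, stood at 0.39 (adjusted p = 0.167).

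Cone genes were mixed. Of 13 measured, 4 rose, 1 fell and 8 were not called, and the median was 0.04. Pde6h, which encodes the inhibitory subunit of the cone phosphodiesterase, rose by 1.23 ± 0.12 (SE, adjusted p = 1.27e-09), Gngt2, the cone transducin gamma subunit, by 0.66 ± 0.10 (SE, adjusted p = 1.72e-05), Arr3 (cone arrestin) by 0.62 ± 0.16 (SE, adjusted p = 0.00605) and Gnb3 by 0.53 ± 0.12 (SE, adjusted p = 0.00247). The catalytic subunit Pde6c fell by 0.52 ± 0.11 (SE, adjusted p = 0.000928). Leaving out a retina gave up to 3 falls (3 without P0 retina 1, and 2 without P0 retina 5 or any of P3 retinas 2 to 5). The opsins were not called, with Opn1sw at 0.13 (adjusted p = 0.551) and Opn1mw at 0.25 (adjusted p = 0.169), nor were the cone fate regulators Thrb (-0.26) and Rxrg (-0.25).

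**Figure D2:**
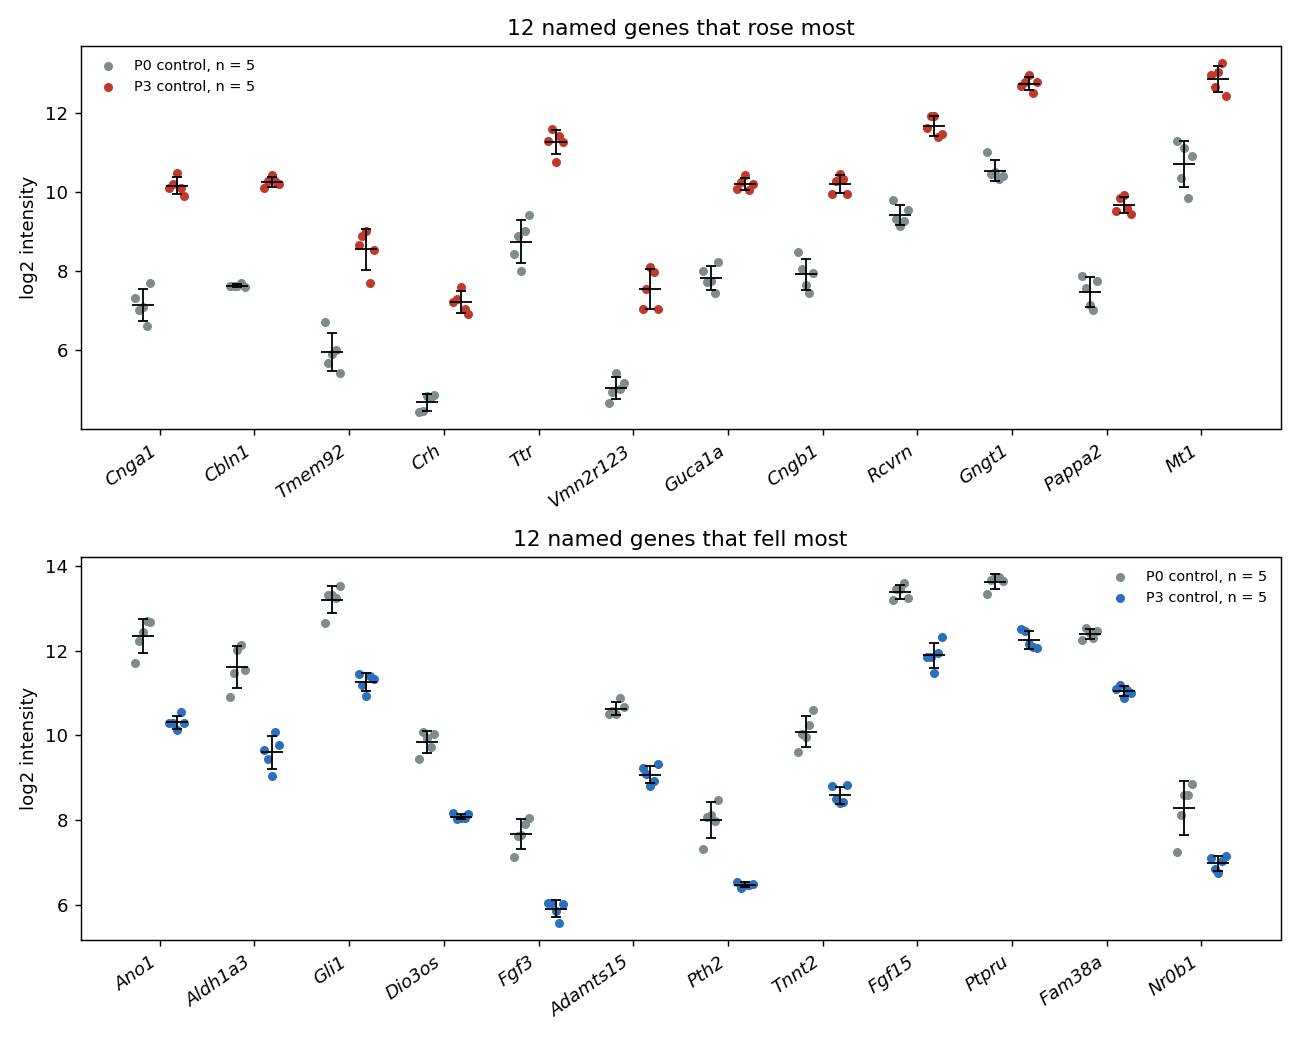
The log2 intensity of the 12 largest rises and 12 largest falls is shown for each of the 5 control retinas at P0 and the 5 at P3, with a bar at each mean and whiskers of 1 SD. No gene has overlapping ages, which the rule that chose them requires, and the lowest values are those of Crh at P0 (4.45).

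A second group that rose was made up of genes known to respond to low oxygen and genes of glycolysis. Whether oxygen or HIF activity had a part in their rise was not tested. Under low oxygen the HIF transcription factors induce glycolytic enzymes, angiogenic signals and regulators of their own stability. Of 13 measured hypoxia genes 11 rose, none fell, and all 13 had a positive change, with a median of 0.94. The fit with slide as a block also gave 11 rises, and the median was 1.08 within the slide that holds both ages and 0.92 and 0.95 in the Cy3 and Cy5 channels. Adm (adrenomedullin, a vasodilator peptide) read 7.16, 6.23, 6.13, 6.80 and 5.97 at P0 and 8.43, 8.26, 8.25, 8.10 and 8.19 at P3 and rose by 1.78 ± 0.26 (SE, adjusted p = 5.11e-06). Bnip3, a mitophagy receptor, read 13.09, 12.98, 12.79, 12.74 and 12.92 at P0 and 14.66, 14.28, 14.24, 14.64 and 14.79 at P3 and rose by 1.62 ± 0.13 (SE, adjusted p = 6.07e-11). The P0 retinas all lay below the P3 retinas for both. Pdk1, which keeps pyruvate out of the mitochondrion, rose by 1.42 ± 0.13 (SE, adjusted p = 7.08e-10), Ddit4, an inhibitor of mTOR signalling, by 1.41 ± 0.22 (SE, adjusted p = 1.17e-05), the oxygen sensor Egln3 by 1.34 ± 0.16 (SE, adjusted p = 1.14e-07) and the collagen prolyl hydroxylase P4ha1 by 1.18 ± 0.13 (SE, adjusted p = 2.39e-08). Vegfa, the main angiogenic signal of the retina, read 12.25, 12.05, 11.88, 11.77 and 11.88 at P0 and 12.78, 12.81, 12.80, 12.50 and 12.50 at P3. Its rise was 0.71 ± 0.13 (SE, adjusted p = 0.000206). Car9 stood at 0.00 (adjusted p = 0.989).

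Glycolysis and lactate transport had 15 of 21 genes up, none down and a median of 0.52. The median was 0.33 in the Cy3 and 0.71 in the Cy5 channels. Slc16a3, the lactate exporter of glycolytic cells, read 11.89, 11.77, 11.59, 11.58 and 11.42 at P0 and 13.78, 13.37, 13.12, 13.12 and 13.47 at P3 and rose by 1.72 ± 0.23 (SE, adjusted p = 9.72e-07), or 3.30-fold. Aldoa rose by 1.36 ± 0.17 (SE, adjusted p = 5.72e-07), Pgk1 by 1.13 ± 0.10 (SE, adjusted p = 9.09e-10), Tpi1 by 1.08 ± 0.13 (SE, adjusted p = 2.89e-07), Aldoc by 0.94 ± 0.12 (SE, adjusted p = 5.8e-07), Pfkl by 0.90 ± 0.13 (SE, adjusted p = 3.91e-06), Ldha by 0.81 ± 0.14 (SE, adjusted p = 7.83e-05) and Hk2 by 0.75 ± 0.16 (SE, adjusted p = 0.000813). The call of Hk2 was lost with scan day as a block (adjusted p = 0.0522). P0 retina 1 stood above the other P0 retinas for Tpi1 (15.29 against 14.42 to 14.64) and Pfkl (11.97 against 11.04 to 11.29), and both rises were still called without it. The enzymes Ldhb (0.09) and Hk1 (0.20) and the glucose transporter Slc2a1 (-0.00) were not called, while its relative Slc2a3 rose by 0.52 (adjusted p = 0.00167).

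The HIF core ACGTG, on either strand, lies within 250 bases before the start of 9 of 12 hypoxia genes (75%) and 9 of 19 glycolysis genes (47.4%) with a promoter entry, against 18.5% of 27025 genes. The windows of Bnip3 and Pgk1 are shown in the same form as above, with ACGTG or CACGT in capitals.
Bnip3, chr7:138909507-138909656, minus strand: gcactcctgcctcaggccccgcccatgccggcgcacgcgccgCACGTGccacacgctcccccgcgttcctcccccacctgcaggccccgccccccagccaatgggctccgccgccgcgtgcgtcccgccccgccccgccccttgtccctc
Pgk1, chrX:106186910-106187059, plus strand: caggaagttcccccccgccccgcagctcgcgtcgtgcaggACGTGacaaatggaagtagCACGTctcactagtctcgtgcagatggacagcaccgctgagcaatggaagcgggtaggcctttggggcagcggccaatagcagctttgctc
Both windows hold 2 matches, which overlap in Bnip3 and lie apart in Pgk1. Among called members with a promoter entry, 7 of 10 hypoxia genes and 6 of 13 glycolysis genes had a match. Genes with a match that were not called were Egln1 (0.34), Car9 (0.00), Pfkm (0.10), Slc2a1 (-0.00) and Slc16a1 (-0.21).

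**Figure D3:**
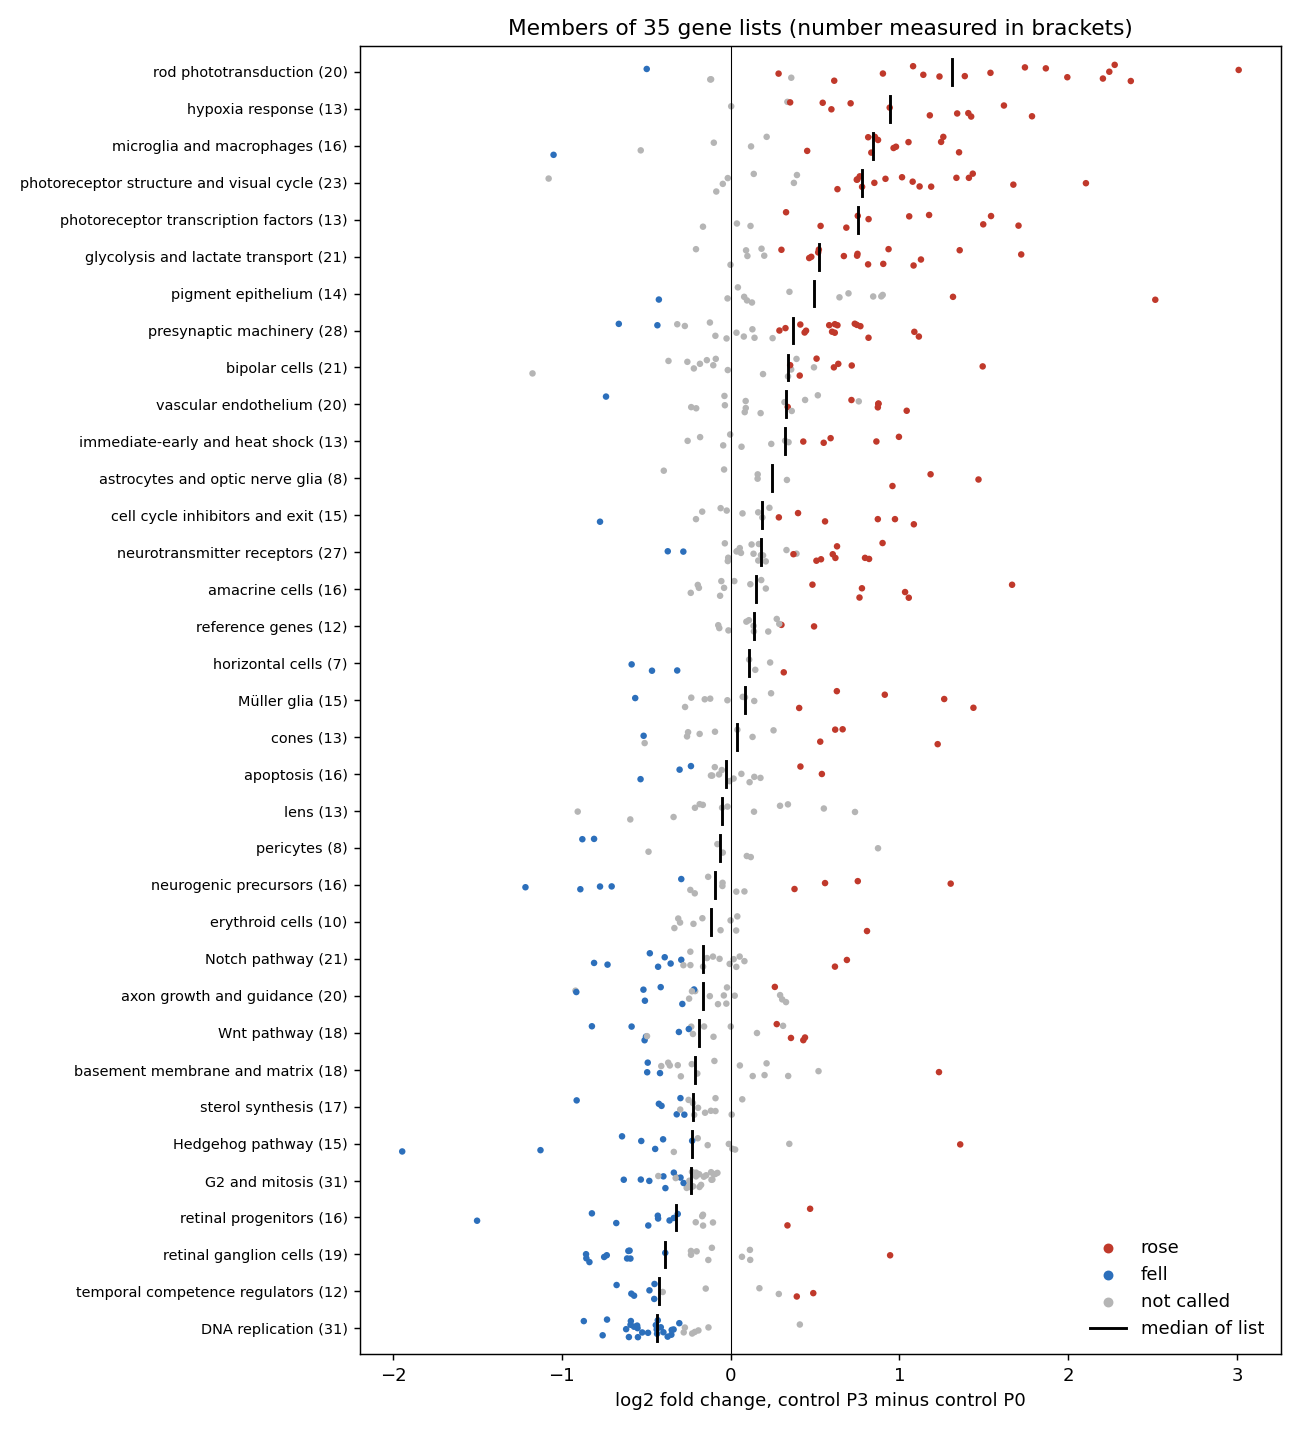
Each row is a gene list and each point 1 measured member, placed by its log2 fold change of control P3 over control P0, in red or blue past an adjusted p of 0.05, with a black bar at the median. Rod phototransduction has the highest median (1.31) and DNA replication the lowest (-0.44).

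DNA replication genes fell together, by small amounts. Of 31 measured, 24 fell and none rose, and 22 had ages that did not overlap, with a median of -0.44 and a largest fall of 0.87. Cdt1, which loads the replicative helicase onto DNA, read 13.72, 13.96, 14.09, 14.05 and 14.13 at P0 and 13.11, 13.07, 12.98, 13.27 and 13.16 at P3. The fall was 0.87 ± 0.10 (SE, adjusted p = 1.38e-07). Uhrf1, which carries DNA methylation across replication, fell by 0.73 ± 0.15 (SE, adjusted p = 0.00066) and the ligase Lig1 by 0.62 ± 0.07 (SE, adjusted p = 5.3e-08). The 6 subunit genes of the replicative MCM helicase fell, by 0.41 for Mcm6 up to 0.57 for Mcm4. The call of Mcm3 (adjusted p = 0.0159) was lost without P3 retina 3 (adjusted p = 0.0567). Pcna, the sliding clamp, fell by 0.35 (adjusted p = 0.00778). The ribonucleotide reductase subunits Rrm1 (-0.21) and Rrm2 (-0.23) and thymidine kinase Tk1 (-0.19) were not called. In the fit with slide as a block 23 of the 31 genes fell.

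Genes of G2 and mitosis moved less. All 31 had a negative change, but only 8 passed the test, and the median was -0.23. Top2a, a topoisomerase of dividing cells, read 13.23, 13.29, 12.96, 12.79 and 13.09 at P0 and 12.55, 12.51, 12.23, 12.43 and 12.46 at P3 and fell by 0.63 ± 0.11 (SE, adjusted p = 7.38e-05). Mki67, the proliferation marker, fell by 0.53 ± 0.13 (SE, adjusted p = 0.00472), Cenpe by 0.48 ± 0.11 (SE, adjusted p = 0.00207) and Tpx2 by 0.39 ± 0.10 (SE, adjusted p = 0.00601). The cyclins Ccnb1 (-0.32), Ccnb2 (-0.11) and Ccna2 (-0.12) and the kinase Cdk1 (-0.19) were not called. Only 4 fell with slide as a block. The median was -0.10 in the Cy3 and -0.32 in the Cy5 channels.

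E2F factors bind TTTNNCGC-like sites in replication genes. These letters, on either strand, were found in 7 of 25 replication genes with a promoter entry (28%) against 4.94% of 27025 genes. Of the 19 called members with an entry 6 had a match, and so did Pola1 (-0.28), which was not called. Windows of 3 genes that fell are shown, with the matches in capitals.
Mcm6, chr1:128359706-128359855, minus strand: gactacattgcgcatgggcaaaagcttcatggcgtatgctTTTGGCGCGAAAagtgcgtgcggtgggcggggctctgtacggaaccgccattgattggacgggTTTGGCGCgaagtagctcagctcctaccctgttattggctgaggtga
Mcm7, chr5:138171939-138172088, minus strand: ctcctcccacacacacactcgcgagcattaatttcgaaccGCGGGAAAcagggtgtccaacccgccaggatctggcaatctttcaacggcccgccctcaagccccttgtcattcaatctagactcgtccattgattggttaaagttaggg
Cdc6, chr11:98907973-98908122, plus strand: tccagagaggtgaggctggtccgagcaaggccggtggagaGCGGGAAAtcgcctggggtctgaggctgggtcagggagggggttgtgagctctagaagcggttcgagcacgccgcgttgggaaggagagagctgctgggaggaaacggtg
Mcm6 has 3 matches, of which 2 overlap as an inverted pair. These 3 genes fell by 0.41, 0.49 and 0.55, the last not called with scan day as a block (adjusted p = 0.0571).

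Among genes that stop the cycle or mark its exit, 6 of 15 rose and 1 fell. Gadd45g, which is expressed in cells leaving the cycle, read 13.87, 13.71, 13.51, 13.35 and 13.67 at P0 and 14.64, 14.78, 14.93, 14.65 and 14.54 at P3 and rose by 1.09 ± 0.13 (SE, adjusted p = 1.14e-07). The neighbouring inhibitor genes Cdkn2a and Cdkn2b rose by 0.87 ± 0.15 (SE, adjusted p = 7.17e-05) and 0.97 ± 0.14 (SE, adjusted p = 2.64e-06), and Cdkn1b (p27, the main inhibitor in late progenitors) by 0.40 ± 0.09 (SE, adjusted p = 0.00178). Btg2, an antiproliferative gene of neurogenic divisions, rose by 0.56 ± 0.10 (SE, adjusted p = 0.000158). Gadd45a was the member that fell, by 0.77 ± 0.13 (SE, adjusted p = 5.71e-05), and 2 fell without P0 retina 1 or 5. Cdkn1a (0.07), Cdkn1c (-0.17) and Rb1 (-0.06) were not called.

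Progenitor genes fell more often than they rose, 9 against 2 of 16, with a median of -0.32. Fgf15, a growth factor of progenitors, read 13.19, 13.47, 13.45, 13.60 and 13.24 at P0 and 11.86, 11.84, 11.48, 11.94 and 12.32 at P3, a fall of 1.50 ± 0.18 (SE, adjusted p = 1.16e-07) with no overlap. Sfrp2, a secreted Wnt modulator, fell by 0.82 ± 0.13 (SE, adjusted p = 1.12e-05), Sox2 by 0.49 ± 0.10 (SE, adjusted p = 0.000917) and Pax6 by 0.31 ± 0.08 (SE, adjusted p = 0.00708). Ccnd1, the cyclin that progenitors depend on, fell by 0.36 ± 0.13 (SE, adjusted p = 0.044), and that call was lost on leaving out any of P0 retinas 2 to 5 or P3 retinas 1 to 3 (adjusted p = 0.0565 to 0.127). Nes (nestin) and Sox9, which both persist in Müller glia, rose by 0.47 ± 0.11 (SE, adjusted p = 0.00297) and 0.34 ± 0.08 (SE, adjusted p = 0.00448).

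Neurogenic factors moved both ways. Atoh7, which is required for ganglion cells, read 11.44, 11.62, 11.54, 11.84 and 11.59 at P0 and 10.51, 10.38, 10.08, 10.42 and 10.57 at P3 and fell by 1.22 ± 0.17 (SE, adjusted p = 1.53e-06). Foxn4 and Ptf1a, which act in sequence towards horizontal and amacrine cells, fell by 0.89 ± 0.19 (SE, adjusted p = 0.000726) and 0.70 ± 0.19 (SE, adjusted p = 0.00745). Neurod4 read 11.32, 10.90, 10.60, 10.66 and 10.57 at P0 and 11.97, 12.16, 12.16, 12.13 and 12.14 at P3 and rose by 1.30 ± 0.11 (SE, adjusted p = 7.87e-11), with Insm1 up by 0.38 ± 0.09 (SE, adjusted p = 0.00343). The proneural factor Neurog2 (-0.05) was not called. In total 4 of the 16 genes rose and 5 fell.

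Regulators of developmental timing fell in 6 of 12 cases, Hmga2 by 0.68 ± 0.15 (SE, adjusted p = 0.00116), Igf2bp1 by 0.59 ± 0.14 (SE, adjusted p = 0.00217), Pou2f2 by 0.57 ± 0.11 (SE, adjusted p = 0.000299), Lin28b by 0.48 ± 0.12 (SE, adjusted p = 0.00558), Igf2bp3 by 0.45 ± 0.11 (SE, adjusted p = 0.00319) and Foxp1 by 0.45 ± 0.11 (SE, adjusted p = 0.00375). Lin28b and Hmga2 are targets of let-7 and belong to the early programme that let-7 ends, and Foxp1 favours early-born neurons. The timing regulators Ikzf1, Casz1 and Pou2f1 were not called. The late-stage nuclear factors stood at 0.29 for Nfia, 0.39 for Nfib and 0.49 for Nfix, and the last 2 were called (adjusted p = 0.0393 and 0.0201), with 1 of them called without P0 retina 2, 3 or 5 or P3 retina 1 and 0 without P0 retina 4 or P3 retina 2 or 3. In the Cy5 channels alone 3 genes of this list fell and 2 rose. The fit of only the 10 control retinas gave 7 falls and 0 rises.

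Hedgehog signalling from ganglion cells keeps progenitors dividing, and 7 of the 15 genes of its pathway fell. Gli1, the factor that the pathway induces, read 12.66, 13.31, 13.31, 13.24 and 13.53 at P0 and 11.45, 11.20, 10.93, 11.39 and 11.34 at P3. It fell by 1.95 ± 0.16 (SE, adjusted p = 6.54e-11), or 3.85-fold, without overlap. Hhip, an induced antagonist that binds the ligand, fell by 1.13 ± 0.11 (SE, adjusted p = 5.86e-09), Gli2 by 0.64 ± 0.10 (SE, adjusted p = 2.04e-05) and Gli3 by 0.53 ± 0.13 (SE, adjusted p = 0.00304). The ligand Shh fell by 0.40 ± 0.11 (SE, adjusted p = 0.00901). The receptor Ptch1, which is also a target, stood at -0.34 (adjusted p = 0.113). Another ligand, Dhh, read 6.80, 6.76, 6.82, 6.82 and 7.17 at P0 and 8.08, 8.12, 8.58, 8.35 and 8.04 at P3 and rose by 1.36 ± 0.11 (SE, adjusted p = 3.84e-11). In all 1 of the 15 rose. With slide as a block 5 fell and 2 rose, and with scan day 4 fell and 2 rose. The letters TGGGTGGTC, which Gli factors are known to bind, were on neither strand of the promoters of the 11 members with an entry, against 0.255% of genes with a match. At so low a share no match is likely among 11 genes, so this count cannot tell the pathway from other genes.

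In the Notch pathway, which holds progenitors back from differentiation, 7 of 21 genes fell and 2 rose. Notch3 fell by 0.81 ± 0.11 (SE, adjusted p = 2.95e-06), Heyl by 0.73 ± 0.13 (SE, adjusted p = 8.97e-05), Notch4 by 0.48 ± 0.09 (SE, adjusted p = 0.00038) and Rbpj, the DNA-binding partner, by 0.36 ± 0.09 (SE, adjusted p = 0.00476). The ligand Jag1 and the target Hey2 rose by 0.69 ± 0.11 (SE, adjusted p = 1.88e-05) and 0.62 ± 0.12 (SE, adjusted p = 0.000221). Receptor Notch1 (-0.10), ligand Dll1 (0.03) and effector Hes5 (-0.16) were not called. Only 4 genes fell without P0 retina 2 or 4 or without P3 retina 1 or 3, and 3 fell with slide as a block.

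Wnt pathway genes moved both ways, 6 of 18 down and 4 up. Besides Sfrp2, its relative Sfrp1 fell by 0.59 ± 0.14 (SE, adjusted p = 0.00224), the receptor Fzd5 by 0.50 ± 0.09 (SE, adjusted p = 9.83e-05) and the nuclear effector Lef1 by 0.51 ± 0.15 (SE, adjusted p = 0.0161). The feedback gene Axin2 rose by 0.44 ± 0.12 (SE, adjusted p = 0.00692), the ligand Wnt5b by 0.43 ± 0.07 (SE, adjusted p = 5.46e-05) and Ndp (norrin, a signal for retinal vessels) by 0.36 ± 0.07 (SE, adjusted p = 0.000224). The block of slide left 3 falls and 3 rises.

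Ganglion cell transcription factors fell together while several of the cells' structural genes were not called. Of 19 markers 10 fell, 1 rose and 8 were not called, with a median of -0.39, and 12 fell with slide as a block. Pou4f1 and Pou4f2, the POU factors of ganglion cells, read 12.79 ± 0.12 at P0 and 11.94 ± 0.06 at P3 and 12.42 ± 0.09 at P0 and 11.58 ± 0.17 at P3 (SD, n = 5), and fell by 0.86 ± 0.12 (SE, adjusted p = 2.7e-06) and 0.84 ± 0.10 (SE, adjusted p = 6.84e-08). Ebf1, Ebf3 and Isl1 fell by 0.85, 0.73 and 0.61. Sncg (gamma-synuclein) and Rbpms, general markers of these cells, fell by 0.61 ± 0.10 (SE, adjusted p = 1.65e-05) and 0.60 ± 0.08 (SE, adjusted p = 3.58e-07), and the growth cone protein gene Gap43 by 0.39 ± 0.08 (SE, adjusted p = 0.000985). Nefh, the heavy neurofilament subunit of maturing axons, read 9.04, 8.92, 8.86, 8.71 and 9.13 at P0 and 9.80, 10.09, 10.05, 9.65 and 9.80 at P3 and rose by 0.94 ± 0.10 (SE, adjusted p = 2.58e-08), the single rise. Its partners Nefl (0.12) and Nefm (-0.13), the transporter Slc17a6 (0.11) and Thy1 (0.07) were not called. In axon growth and guidance 6 of 20 genes fell, led by the receptor Ephb1 (-0.91), Sema3a (-0.52), Dcx (-0.51) and Efna5 (-0.41). With slide or scan day as a block 3 fell, and the median of -0.17 was -0.02 with slide.

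Amacrine genes rose in 6 of 16 measured cases and none fell. Neurod2 read 10.19, 9.73, 9.92, 9.74 and 9.85 at P0 and 11.43, 11.35, 11.70, 11.77 and 11.51 at P3 and rose by 1.67 ± 0.09 (SE, adjusted p = 1.24e-14). Slc6a9, the glycine transporter of glycinergic amacrine cells, rose by 1.03 ± 0.14 (SE, adjusted p = 2.26e-06), Neurod6, well above background in 1 of 5 P0 retinas, by 1.06 ± 0.13 (SE, adjusted p = 2.76e-07), Slc32a1, which loads vesicles with GABA and glycine, by 0.78 ± 0.12 (SE, adjusted p = 1.29e-05) and Gad1, which makes GABA, by 0.76 ± 0.10 (SE, adjusted p = 5.67e-07). The size of the Neurod6 rise is uncertain, because most P0 retinas were not well above background. The starburst genes Chat (0.21) and Slc5a7 (0.02) and the dopaminergic Th (-0.04) were not called.

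Bipolar cells are among the last neurons born. Of 21 of their genes 7 rose and none fell, with a median of 0.34. With slide as a block 6 rose, 1 fell and the median was 0.12, and with the Xist level as a covariate 2 fell. Lhx4 rose by 0.61 ± 0.11 (SE, adjusted p = 9.15e-05), the ON bipolar G protein subunit Gng13 by 0.72 ± 0.12 (SE, adjusted p = 2.87e-05), and Pcp2 by 0.51 ± 0.14 (SE, adjusted p = 0.0076). Sebox was at background in every P0 retina and well above it in 3 of 5 at P3, a rise of at least 1.75-fold (adjusted p = 7e-06). The transduction channel Trpm1 (0.34), Prkca (0.19) and Vsx1 (-0.26) were not called, and the glutamate receptor Grm6 stayed near background at both ages.

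Of 15 Müller glia genes 5 rose and 1 fell, with a median of 0.08. Dbi, which binds acyl-CoA, read 15.44, 15.24, 15.03, 15.04 and 15.31 at P0 and 16.52, 16.58, 16.71, 16.70 and 16.73 at P3 and rose by 1.44 ± 0.11 (SE, adjusted p = 2.28e-11), and Rlbp1, the retinaldehyde-binding protein of these glia, read 12.08, 11.55, 11.46, 11.68 and 11.82 at P0 and 12.89, 12.99, 13.19, 13.00 and 12.86 at P3 and rose by 1.26 ± 0.10 (SE, adjusted p = 3.68e-11). Clu, Crym and Apoe rose by 0.91, 0.63 and 0.41. The water channel gene Aqp4 fell by 0.57 ± 0.15 (SE, adjusted p = 0.00593), though the value was 0.04 with slide as a block and 2 genes fell without P0 retina 1, and Glul (-0.12) and Kcnj10 (-0.15) were not called. Of 7 horizontal cell genes 3 fell and 1 rose, with Onecut2 down by 0.59 ± 0.17 (SE, adjusted p = 0.0159) and Lhx1 (0.11), Prox1 (0.15) and Calb1 (0.23) not called. Only 1 of them fell without P0 retina 5 or P3 retina 4.

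Genes of the synaptic terminal rose more often than they fell. Of 28 presynaptic genes 16 rose and 2 fell, with a median of 0.37, and 12 rose and 0 fell with slide as a block. Slc17a7, the vesicular glutamate transporter of photoreceptors and bipolar cells, read 6.87, 6.70, 6.32, 6.19 and 6.36 at P0 and 7.34, 7.55, 8.04, 7.49 and 7.60 at P3 and rose by 1.11 ± 0.13 (SE, adjusted p = 5.9e-08). Genes of the ribbon synapse calcium channel rose, Cacna2d4 by 1.09 ± 0.15 (SE, adjusted p = 2.38e-06) and Cacna1f by 0.77 ± 0.18 (SE, adjusted p = 0.00214), as did the ribbon synapse complexins Cplx3 by 0.82 ± 0.09 (SE, adjusted p = 5.5e-08) and Cplx4 by 0.63 ± 0.10 (SE, adjusted p = 1e-05). Stx3, Syngr1 and Syp rose by 0.75, 0.74 and 0.62. The scaffolds Bsn (-0.12) and Pclo (-0.02) were not called.

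Among 27 neurotransmitter receptors 9 rose and 2 fell. The glycine receptor subunits Glrb and Glra2 rose by 0.90 ± 0.09 (SE, adjusted p = 3.24e-09) and 0.60 ± 0.11 (SE, adjusted p = 8.45e-05), and the GABA-A subunits Gabrb1, Gabra3 and Gabra2 by 0.62, 0.54 and 0.51. AMPA receptor subunits Gria3 and Gria1 rose by 0.80 and 0.63, while Gria2 stood at 0.04. The nicotinic subunit Chrna4 fell by 0.37 ± 0.07 (SE, adjusted p = 0.000366), and it was the only fall without P0 retina 1 or 4 or P3 retina 1.

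Microglia, which enter the retina from outside, had higher marker levels at P3. Of 16 microglia and macrophage genes 11 rose and 1 fell, with a median of 0.84. Their mean level ranged from 8.13 to 8.68 among the P0 retinas and from 8.84 to 9.02 among the P3 retinas. Aif1 (Iba1) read 8.45, 8.21, 8.20, 7.98 and 8.84 at P0 and 9.75, 9.62, 9.57, 9.70 and 9.80 at P3 and rose by 1.35 ± 0.16 (SE, adjusted p = 1.32e-07). Tyrobp and Trem2, partners in a phagocytic receptor, rose by 1.26 ± 0.16 (SE, adjusted p = 3.58e-07) and 1.25 ± 0.15 (SE, adjusted p = 1.62e-07), the homeostatic receptor genes P2ry12 and Cx3cr1 by 1.05 ± 0.16 (SE, adjusted p = 5.87e-06) and 0.87 ± 0.12 (SE, adjusted p = 3.66e-06), and the complement genes C1qc and C1qa by 0.85 ± 0.14 (SE, adjusted p = 3.11e-05) and 0.81 ± 0.13 (SE, adjusted p = 3.2e-05). Csf1r (0.21) and Tmem119 (0.12) were not called. In P0 retina 5, the P0 retina on the slide shared with P3, Aif1, Trem2 and Ctss were each above the other P0 retinas, and within that slide the median was 0.43.

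The single microglial gene called lower was Itgam, and its probe is one of a set that holds simple repeats. It read 15.04, 14.48, 14.94, 15.09 and 14.37 at P0 and 13.62, 14.13, 12.80, 14.63 and 13.49 at P3, a change of -1.05 ± 0.32 (SE, adjusted p = 0.0193), while the other 2 probes of Itgam changed by -0.24 and 0.05 and were not called. The call was lost without P0 retina 4 (adjusted p = 0.0514) or P3 retina 3 (adjusted p = 0.0873). Of 411 probes with a pair of bases at least 6 times or a triplet at least 4 times in a row, 15.3% fell and 3.16% rose, and the deviations of these probes from the group means correlated with their own average across the 38 retinas with a median r of 0.43 (0.90 for the Itgam probe), in which each probe is part of the average. The repeat probes of 3 list members are shown over the 30 bases that hold the repeat, with the repeat in capitals, with the position of the whole 60-base probe in mm9 as the scanner files give it.
Itgam, chr7:135261755-135261814: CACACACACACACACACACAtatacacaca
Snap25, chr2:136607709-136607768: CACACACACACACACACACAaagtggattt
Cabp5, chr7:13993821-13993880: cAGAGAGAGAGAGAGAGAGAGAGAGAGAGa
Snap25, a vesicle fusion protein gene with no other probe, was called lower (-0.66, adjusted p = 0.027), and that call was lost without P0 retina 1, 3 or 4 or P3 retina 1, 3 or 5 (adjusted p = 0.0566 to 0.101). The repeat probe of Cabp5 stood at -1.17 (adjusted p = 0.0736), whereas its other probe rose by 0.38. What these probes bind was not tested.

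Vessels and their companions changed in part. Of 20 endothelial genes 6 rose and 1 fell. Egfl7 rose by 0.88 ± 0.12 (SE, adjusted p = 8.21e-07), Apln, a tip cell peptide, by 0.72 ± 0.10 (SE, adjusted p = 4.65e-06) and Angpt2 by 0.34 ± 0.08 (SE, adjusted p = 0.00249), while the tight junction gene Cldn5 fell by 0.74 ± 0.19 (SE, adjusted p = 0.00554). The calls of Angpt2 and Cldn5 were lost with slide or scan day as a block, where 0 of the 20 genes fell. Kdr (0.08), Pecam1 (-0.20) and Flt1 (-0.03) were not called, and the median of the list, 0.33, was -0.01 within the slide that holds both ages. The pericyte genes Pdgfrb and Notch3 fell by 0.88 and 0.81, the 2 of 8 to be called, and 1 other rose without P0 retina 5. Astrocyte genes rose in 3 of 8 cases. Pdgfra, the receptor of migrating astrocyte precursors, rose by 1.18 ± 0.14 (SE, adjusted p = 6.26e-08) and S100b by 0.96 ± 0.24 (SE, adjusted p = 0.00381). Gfap read 6.88, 6.53, 5.81, 6.21 and 6.38 at P0 and 8.09, 7.00, 8.27, 7.79 and 8.00 at P3 and rose by 1.47 ± 0.45 (SE, adjusted p = 0.0202), a call lost without P0 retina 3 (adjusted p = 0.0580) or P3 retina 3 (adjusted p = 0.0547).

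Tissue left on the retina at dissection was looked for through its markers. Of 14 pigment epithelium genes 12 had a positive change, while 2 rose and 1 fell past the threshold. Without P3 retina 3, 4 rose, in a fit of only the 10 control retinas 5 rose and none fell, and with slide as a block none rose. Ttr (transthyretin) read 8.43, 8.88, 8.00, 9.01 and 9.42 at P0 and 11.30, 11.58, 10.76, 11.41 and 11.27 at P3 and rose by 2.52 ± 0.49 (SE, adjusted p = 0.000332), Rgr rose by 1.32 ± 0.36 (SE, adjusted p = 0.00935), and Rrh fell by 0.43 ± 0.11 (SE, adjusted p = 0.00619). With slide as a block Ttr stood at 2.06 (adjusted p = 0.0841) and Rgr at 1.01 (adjusted p = 0.31). The pigment genes Tyrp1, Dct and Pmel stood at 0.90 (adjusted p = 0.0579), 0.89 (adjusted p = 0.138) and 0.84 (adjusted p = 0.117). The mean level of the 14 genes was 7.75 to 8.20 at P0 and 8.20 to 8.74 at P3, and Best1 and Lrat stayed near background in all 10 retinas. The part of pigment epithelium in the rise of Ttr and Rgr was not tested. Of 13 lens genes none was called and of 10 erythroid genes only Ahsp rose, by 0.81 ± 0.19 (SE, adjusted p = 0.002). Globin genes were not called (Hbb-b1 -0.00, Hba-a1 -0.33). Single retinas stood apart in both lists. The mean level of the lens genes was 9.60 in P3 retina 1 against 6.89 to 7.36 in the other P3 retinas, and 8.56 in P0 retina 2 against 6.82 to 7.85 in the rest of P0. The mean level of the erythroid genes was 9.09 and 9.31 in P0 retinas 4 and 5 against 7.94 to 8.19 in the other 3, and 8.24 to 8.71 at P3.

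Of 17 sterol synthesis genes 6 fell and none rose, with a median of -0.22. With scan day as a block 3 fell. In cKO 13 fell, with a median of -0.35. The difference between genotypes in this change was at an unadjusted p under 0.05 (limma) for 0 of the 17. Basement membrane genes fell in 3 of 18 cases, among them Lamb2 (-0.49) and Lama1 (-0.42), while Nid2 rose by 1.23 ± 0.22 (SE, adjusted p = 8.22e-05). With slide or scan day as a block 1 fell, in the fit of the 10 controls 5 fell, and the median of -0.21 was -0.01 with slide. The heat shock gene Hspb1 rose by 1.00 ± 0.08 (SE, adjusted p = 3.84e-11) and the immediate-early genes Fos and Jun by 0.86 ± 0.15 (SE, adjusted p = 6.59e-05) and 0.55 ± 0.14 (SE, adjusted p = 0.00426), with 5 of 13 up. With slide or scan day as a block 3 rose, and the median of 0.32 was 0.08 with slide and 0.04 within the slide that holds both ages. Apoptosis genes were mostly not called, 11 of 16, while 3 fell and 2 rose. Bcl2 fell by 0.53 ± 0.08 (SE, adjusted p = 8.17e-06), and the BH3-only genes Pmaip1 and Bcl2l11 rose by 0.54 and 0.41. With slide as a block 1 fell and none rose, and 1 fell without P0 retina 3 or P3 retina 4. Of 12 reference genes 2 rose, Hprt1 by 0.49 ± 0.09 (SE, adjusted p = 7.9e-05) and Gapdh by 0.30 ± 0.10 (SE, adjusted p = 0.0259), with 1 rise left without P0 retina 3, 4 or 5 or P3 retina 1. Actb (0.22), Tbp (-0.07) and Ywhaz (-0.01) were not called.

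Several of the largest changes lay outside these lists. Cbln1, a secreted synapse organiser, read 7.62, 7.62, 7.62, 7.69 and 7.61 at P0 and 10.09, 10.27, 10.43, 10.27 and 10.20 at P3. The P0 retinas lay within 7.61 to 7.69, and the rise was 2.62 ± 0.09 (SE, adjusted p = 5.45e-21), or 6.16-fold. Crh, a stress neuropeptide, was at background in all 5 P0 retinas and well above it in all 5 at P3, a rise of at least 3.90-fold (adjusted p = 1.04e-13). The vomeronasal receptor gene Vmn2r123 rose from background by at least 4.78-fold (adjusted p = 1.36e-11). Tmem92 rose 6.08-fold (adjusted p = 1.75e-09), and Pappa2, a protease of IGF-binding proteins, and the metallothionein gene Mt1 rose by 2.19 ± 0.13 (SE, adjusted p = 9.83e-14) and 2.16 ± 0.31 (SE, adjusted p = 3.11e-06).

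Among the falls, Aldh1a3, which makes retinoic acid, read 10.90, 11.47, 12.01, 12.13 and 11.55 at P0 and 9.65, 9.43, 9.04, 10.08 and 9.78 at P3. It fell by 2.02 ± 0.29 (SE, adjusted p = 3.9e-06). Dio3os, a noncoding transcript beside the gene of a thyroid hormone deiodinase, fell by 1.77 ± 0.18 (SE, adjusted p = 4.81e-09), the protease Adamts15 by 1.56 ± 0.12 (SE, adjusted p = 1.39e-11) and the phosphatase Ptpru by 1.37 ± 0.11 (SE, adjusted p = 2.58e-11). Tnnt2, a troponin, fell by 1.50 ± 0.18 (SE, adjusted p = 1.76e-07) and Fam38a, now named Piezo1 and encoding a mechanosensitive channel, by 1.36 ± 0.10 (SE, adjusted p = 1.32e-11). Pth2 and Nr0b1 fell by 1.53 ± 0.18 (SE, adjusted p = 1.8e-07) and 1.31 ± 0.20 (SE, adjusted p = 7.49e-06). The probe of Pth2 lies 6.21 kb from that of Slc17a7, which rose.

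Ano1, Fgf3 and Fgf15, which rank among the 12 largest falls, are neighbours on chromosome 7. Their probes lie at chr7:151774604-151774663, chr7:152026667-152028526 and chr7:152086371-152086430 (mm9), with 311.71 kb between the outer probes. Ano1, a calcium-activated chloride channel gene, read 11.71, 12.24, 12.44, 12.71 and 12.67 at P0 and 10.28, 10.29, 10.13, 10.55 and 10.30 at P3, a fall of 2.04 ± 0.18 (SE, adjusted p = 2.06e-10) or 4.12-fold. Fgf3 read 7.13, 7.61, 7.64, 7.90 and 8.05 at P0 and 6.03, 6.04, 5.85, 5.57 and 6.02 at P3 and fell by 1.76 ± 0.21 (SE, adjusted p = 1.47e-07). From 50 kb before the Ano1 probe to 50 kb after that of Fgf15 the array holds 11 names, of which 5 fell and none rose. Ccnd1 and an unnamed transcript (-0.42, adjusted p = 0.0143) make up the 5, while Fadd (0.07), Oraov1 (0.17) and Fgf4 (not well above background) were not called. The window was chosen after these changes had been seen.

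The later control ages were set beside the first step. The controls at P6 and P10 share no retina with P0, but each step shares an age with the next, so the values are set side by side. The study's supplementary lists of RNA samples and of hybridisations give the P10 retinas opposite genotypes. The P10 controls here follow the deposited sample labels. Rod phototransduction had medians of 1.31, 2.31 and 1.86 over P0 to P3, P3 to P6 and P6 to P10. From the youngest to the oldest age Cnga1 stood at 7.15, 10.16, 13.31 and 15.22. The photoreceptor transcription factors had medians of 0.75, 0.41 and -0.01. DNA replication had medians of -0.44, -1.71 and -0.98, and G2 and mitosis -0.23, -2.37 and -2.65. Gli1 stood at 13.21, 11.26, 8.18 and 6.08. Hypoxia genes had medians of 0.94, 0.01 and -0.14, glycolysis 0.52, 0.03 and 0.36, microglia 0.84, 0.50 and -0.03, and ganglion cells -0.39, 0.00 and 0.06. Cbln1 stood at 7.63, 10.25, 10.35 and 9.83. From P3 to P6, 13.6% of names rose and 11.8% fell.

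**Figure D4:**
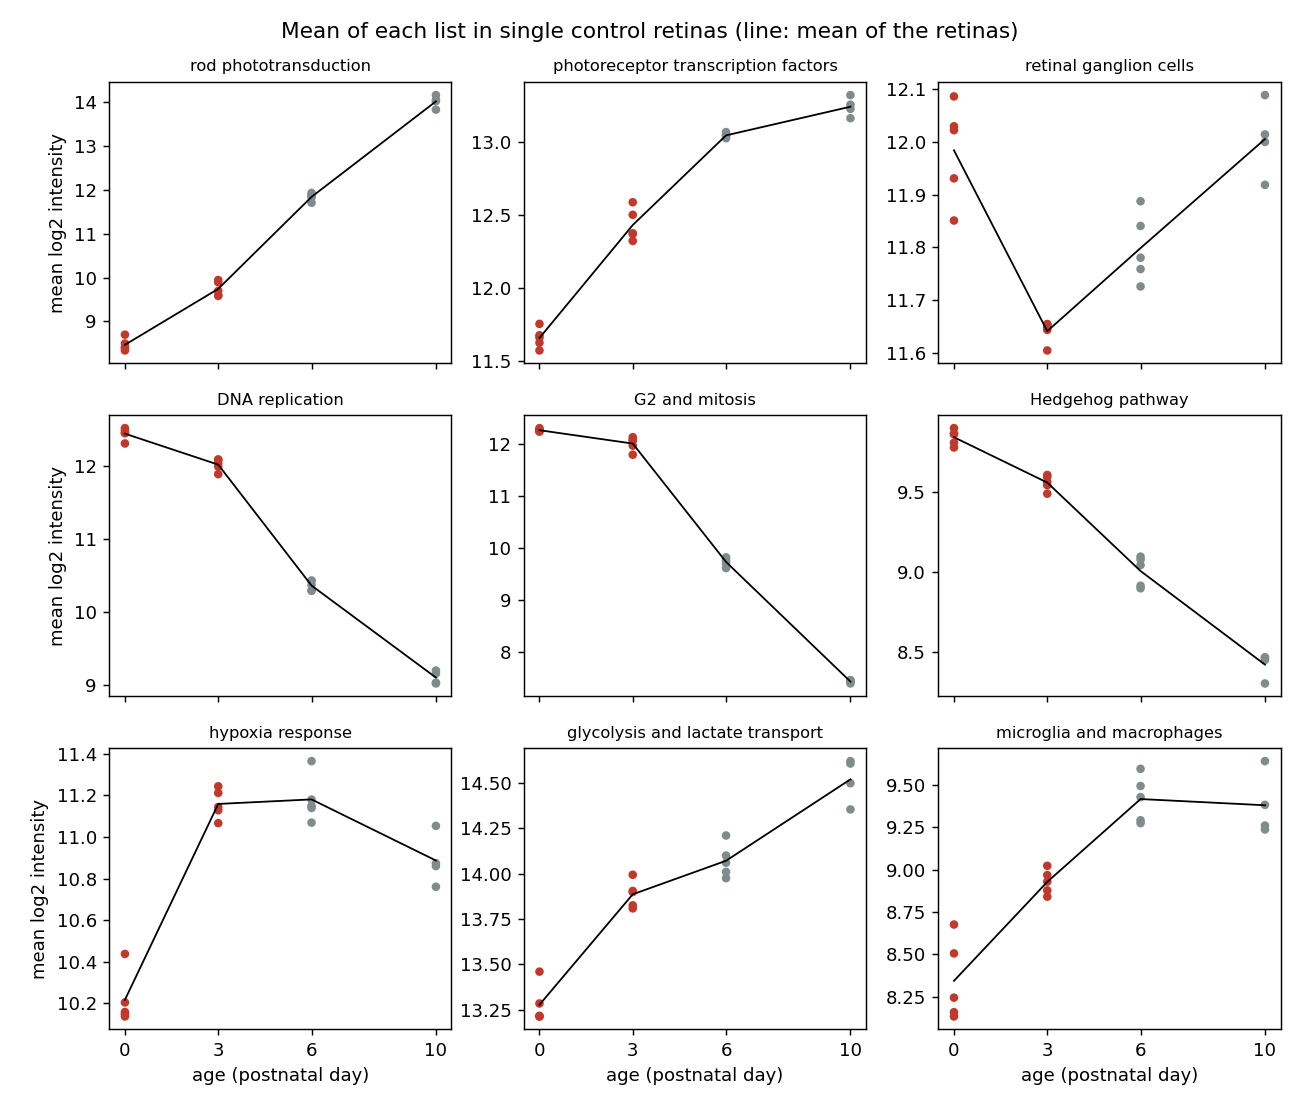
The mean log2 intensity over the members of 9 gene lists is shown for single control retinas (points) at P0, P3 and P6 (5 each) and P10 (4), with age in days on the x axis, a line through the mean of the retinas and a y axis of its own in each panel. Rod phototransduction climbs from 8.47 at P0 to 9.74 at P3 and 14.02 at P10, while G2 and mitosis drops from 12.26 at P0 to 7.42 at P10.

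The same 3 days were examined in cKO retinas, which shared arrays with the controls. There 2704 probes rose (6.88%) and 2693 fell (6.86%), or 6.93% and 7.11% of gene names. Of the 7248 probes called in controls, 4023 were also called in cKO in the same direction (55.5% of the control calls and 74.5% of the 5397 cKO calls), and none was called in the opposite direction. The difference between the 2 genotypes in their change from P0 to P3 passed for 0 of 39283 probes in limma, with 929 at an unadjusted p under 0.05, and for 4 probes when the array entered as a random block together with dye as a covariate. These 4 were both probes of Hnmt (0.74 and 0.99 in controls against 0.30 and 0.40 in cKO), Ttc30a2 (0.60 against 0.18) and B3galt5 (1.20 against 0.62). Cnga1 changed by 2.52 in cKO and Gli1 by -1.59. Rod phototransduction had 16 of 20 genes up in cKO with a median of 1.21, and microglia 8 of 16 up with a median of 0.52. Crb2 itself fell by 0.70 from P0 to P3 in controls (adjusted p = 9.16e-08), while Crb1 was not called. The study places the Crb2 probe outside the deleted stretch, so in these controls it reads intact and recombined transcript together.

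**Figure D5:**
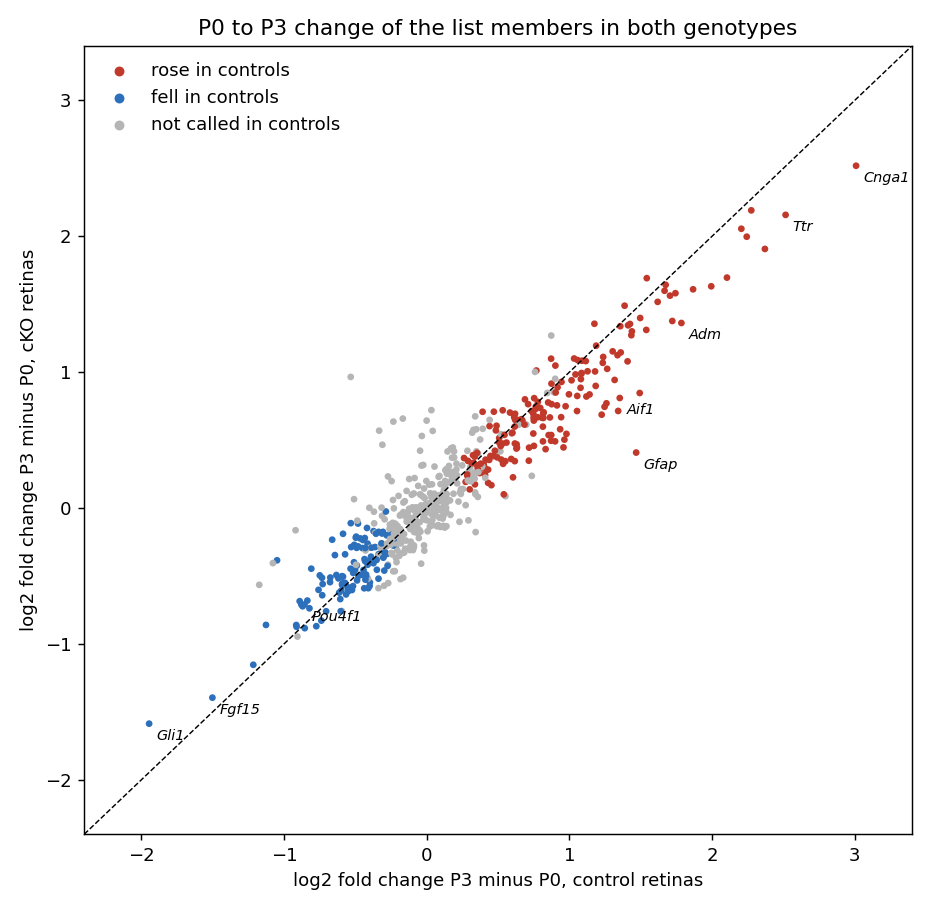
Each point is 1 measured list member, with its log2 fold change from P0 to P3 in controls on the x axis and in cKO on the y axis, and the dashed line marks equal change. Cnga1 (3.01 in controls) is farthest to the right and Gli1 (-1.95) farthest to the left, and points lie near the line.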

How the data were processed

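RNA of single retinas was measured on 2-colour Agilent arrays, and each channel was treated as 1 sample. The authors deposited the mean spot intensity and median local background of both channels, a processed intensity corrected for background and dye, and scanner flags. They also deposited log2 intensities made with normexp and quantile normalization in limma. Deposited fold changes and p-values of the authors' own comparisons were not used.

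The values here were computed from the mean intensity with R 4.3.3 and limma 3.58.1. Of 44397 features, 1377 were control spots, and 158 others were dropped because the scanner software called them saturated (7) or a non-uniformity outlier (151) on at least 1 array. Normexp used an offset of 0, channels were quantile-normalised, and spots were averaged per probe, giving 39283 probes. A model of 8 groups over 38 retinas gave the contrast of P3 minus P0 controls, 2-sided, with Benjamini-Hochberg adjustment over all probes. It treated the 2 retinas of an array as independent, although their estimated correlation was 0.48 with dye as a covariate. A probe well above background in no retina of 1 age gives a lower bound, set against the lowest signal well above background. No depth applies to arrays, and their number limits the precision.

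Named are the 12 largest rises and 12 largest falls past the threshold that were well above background in all 5 brighter retinas with ages that do not overlap, leaving out unnamed transcripts, and members of the gene lists. Those lists hold 582 genes, of which 577 have a probe. Some are counted within their list but not reported by name here. The lists and these members were chosen with earlier results of these data known. Same-numbered P0 and P3 retinas deviated together with correlations of -0.07 to 0.31, so the numbers were not treated as pairs. Alternatives were another offset, loess, the processed or deposited values, filters, other fits, blocks of slide, scan day, array or number, single dyes, an Xist covariate, the methods' t-test and each retina left out. Leaving out simple-repeat probes was chosen after seeing the data. Promoters come from RefSeq (GRCm38.p6) and probe positions from the scanner files (mm9).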

Additional observations from a re-analysis of the deposited data

Results flagged for a closer look

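Single retinas stood apart from the other 4 of their age for 38 of 540 combinations of a named gene and an age, by Dixon's criterion at a ratio of 0.71. Chance alone flags about 1 in 20 such groups.

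P0 control retina 1 was flagged most often. It stood high for Gngt1 (11.00 against at most 10.50), Gnat1 (6.88), Rbp3 (14.57), Ldha (16.70), Pfkl (11.97) and Tpi1 (15.29). It stood low for Foxn4 (13.96), Hhip (10.63), Hmga2 (8.79), Mcm6 (15.49), Pde6c (10.79), Ptpru (13.33) and Slc5a7 (5.96). For each of these except Rbp3 and Slc5a7, which were not called, it was the P0 retina nearest to the P3 retinas.

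P0 control retina 5, the P0 retina on the slide shared with P3, was high for Arr3 (8.40), Ctss (10.48), Dhh (7.17), Lhx4 (9.91), Actb (17.61) and Chrna4 (10.97), and low for Jun (12.43). Of the other P0 retinas, retina 4 read 7.69 for Cbln1 and 9.90 for Samd11.

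P3 control retina 3 was high for Pdc (15.36), Rom1 (16.32) and Syp (13.63) and low for Cenpe (13.09), Foxn4 (13.30), Igf2bp3 (9.03) and Ddit4 (14.62). It was also the lowest P3 retina for the pigment genes Dct (11.49 against at least 12.44), Pmel (10.63 against at least 11.68) and Tyrp1 (9.63 against at least 10.06). Among the other P3 retinas, retina 4 was low for Aldoa (16.62), Gli2 (8.59), Gucy2e (6.40) and Shh (6.53), retina 2 for Egfl7 (12.65) and retina 1 for Neurod4 (11.97).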

How the results depend on the processing

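In these data 4106 probes rose and 3142 fell from P0 to P3 in controls, and 4023 were called in the same direction in cKO. Counts moved by over 1.5 times where fewer retinas or a block carried the comparison. With slide as a fixed block 2402 rose and 1822 fell, with scan day as a fixed block 2275 rose, 1607 fell and 2536 were called alike in cKO, and with slide as a random block 2025 fell. In the Cy5 channels alone 2047 rose and 1254 fell, and in the Cy3 channels alone and on the slide that holds both ages 0 rose and 0 fell. With the retina number as a replicate block in the 10 controls, 2167 rose and 1569 fell. The genotype difference passed for 0 probes, and for 4 when a random array block and a dye term were added together. Leaving out each retina in turn, 3386 to 4102 rose, 2323 to 3332 fell, 3480 to 4084 were called alike in cKO and 0 to 0 differed between genotypes. The other settings, including another offset, loess, processed or deposited values, filters, the methods' t-test (3541 rose and 2574 fell) and an Xist covariate, kept these counts within 1.5 times. Why the counts moved was not tested.

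Of 205 named genes called, 27 lost the call with slide as a fixed block (Ahsp, Angpt2, Aqp4, Bcl2l11, Cdkn1b, Cldn5, Efna5, Esrrb, Fos, Gabra2, Gli3, Gnb3, Guca1b, Heyl, Insm1, Itgam, Lama1, Lef1, Mki67, Nfib, Nid2, Pmaip1, Ptf1a, Rgr, Snap25, Tpx2 and Ttr). With scan day 31 lost it, those 27 without Heyl, Lef1 and Nid2 and with Ccnd1, Cdc6, Gabra3, Hk2, Igf2bp1, Lhx4 and Mcm3. With the replicate block 24 lost it (Apoe, Aqp4, Arr3, Axin2, Ccnd1, Foxp1, Gapdh, Guca1b, Hk2, Itgam, Jun, Lama1, Nes, Nfib, Nfix, Pcna, Pcp2, Pde6c, Pmaip1, Rbpj, Rrh, Shh, Snap25 and Sox9). In the Cy5 channels alone 40 lost it, with the methods' t-test 14, and 142 of the 205 kept it in every setting that tested them other than the Cy3 channels alone and the single slide, where none did. The sign turned for Aqp4 (0.0443 with slide and 0.0423 with scan day as a block) and Guca1b (0.0273 and 0.0413), and without simple-repeat probes for Itgam (0.0513) and Cabp5 (0.38). The median of a list changed sign in at least 1 setting for neurogenic, cone, horizontal, endothelial, pericyte, erythroid, lens and apoptosis genes. A single fall was called among amacrine genes without P0 retina 4 or P3 retina 5 and among bipolar genes without P0 retina 4 or P3 retina 4, and a single rise among lens genes without P3 retina 2. With scan day as a block 4 bipolar and 2 endothelial genes rose, and 3 neurogenic and 4 Notch genes fell. In the Cy5 channels alone 6 microglial, 3 bipolar, 3 endothelial, 2 cone and 1 Wnt gene rose. Probes near background carry mostly noise.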
